A study of Mus musculus with 4 samples.

Results

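The MHC class II presentation genes are the set through which antigen-presenting cells show peptides to CD4+ T cells, and 10 of the 32285 genes in the count tables belong to it: H2-Aa, H2-Ab1, H2-Eb1, Cd74, H2-DMa, H2-DMb1, H2-DMb2, H2-Oa, H2-Ob and Ciita. They were matched by gene symbol, from a list chosen with earlier results of these data known, and all 10 were counted in every library. Droplet single-cell RNA-seq reading the 3′ ends of polyadenylated transcripts was made from mice in a study of glycan targeting and checkpoint blockade in ovarian tumours, with lymph node given as the tissue. The 4 libraries, 1 per group, were 2DG_aPDL1 (2-deoxy-D-glucose with aPDL1), 2DG (2-deoxy-D-glucose, a glucose analogue, alone), aPDL1 alone (named only so in the labels; PD-L1 is an immune checkpoint ligand) and ctrl (control). The design text speaks of young and aged, treated and naive mice, but the labels give no age, strain, dose, time, tumour model or number of animals for any library, so what the groups share beyond the tissue is not known here.

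An MHC class II molecule is a pair of an alpha and a beta chain that binds peptides made in endosomes and carries them to the cell surface. The invariant chain, encoded by Cd74, holds the groove during transport. H2-DM then exchanges its last fragment for antigen peptides, and H2-O, a relative of H2-DM known mainly from B cells, restrains H2-DM. Ciita is the co-activator that turns on the whole set; it binds no DNA itself but joins factors seated on a shared promoter element. Dendritic cells, B cells and macrophages are the usual carriers, interferon gamma induces the genes in other myeloid cells, and mouse T cells, NK cells and neutrophils are not known as strong carriers.

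H2-Aa (ENSMUSG00000036594) encodes the alpha chain of the I-A molecule, H2-Ab1 (ENSMUSG00000073421) its beta chain, and H2-Eb1 (ENSMUSG00000060586) the beta chain of I-E. In the GRCm38 annotation (the build known as mm10) 8 of the 10 genes lie within 224.3 kb of chromosome 17. H2-Aa is on the minus strand at chr17:34282744-34287823, and the other 7 are on the plus strand: H2-Oa at chr17:34092340-34095234, H2-DMa at chr17:34119541-34139101, H2-DMb2 at chr17:34143307-34151555, H2-DMb1 at chr17:34153072-34160230, H2-Ob at chr17:34238903-34254414, H2-Ab1 at chr17:34257689-34269419 and H2-Eb1 at chr17:34305867-34316674. Ciita lies apart from them at chr16:10480059-10528418. H2-Oa overlaps an antisense gene over 2895 bases, H2-DMa overlaps Brd2 over 3094 bases on the other strand, Ciita overlaps Dexi over 25888 bases and H2-Eb1 overlaps the antisense gene Gm20513 over 2204 bases. Whether the authors' counting used strand is not stated in the labels or headers, so these genes' levels carry that uncertainty. H2-DMb1 and H2-DMb2, the alternative beta chains of H2-DM, are 94.4% identical over 1255 aligned transcript bases but 74.2% identical over their last 300 bases, where 3′ reads fall, and the split of reads between them is uncertain to that extent.

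The promoter letters of some members are shown here, and their part in the levels below was not tested. Promoter windows of 300 bases (250 before to 50 after the RefSeq start, GRCm38.p6) were matched for 7 of the 10 genes, with 2 windows for H2-DMa. Each stretch of 50 bases is printed 5′ to 3′ on the gene's strand, from 40 bases before to 10 bases after the first base of ATTGG, the core of the Y box. Capitals mark ATTGG and, upstream of it, AACNNATGATG, a pattern built from the windows of H2-Eb1, H2-DMb1, H2-DMb2 and H2-Ob after these sequences had been looked at. The coordinates are chr17:34287862-34287911 (minus strand) for H2-Aa, chr17:34305768-34305817 for H2-Eb1, chr17:34153090-34153139 for H2-DMb1, chr17:34145119-34145168 for H2-DMb2, chr17:34092296-34092345 for H2-Oa and chr17:34238808-34238857 for H2-Ob, all 5 of these on the plus strand.
H2-Aa: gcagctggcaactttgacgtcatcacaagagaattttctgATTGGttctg
H2-Eb1: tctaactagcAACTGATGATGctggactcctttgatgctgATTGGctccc
H2-DMb1: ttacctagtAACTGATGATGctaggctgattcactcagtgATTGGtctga
H2-DMb2: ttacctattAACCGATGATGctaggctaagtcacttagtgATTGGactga
H2-Oa: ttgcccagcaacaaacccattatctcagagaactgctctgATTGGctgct
H2-Ob: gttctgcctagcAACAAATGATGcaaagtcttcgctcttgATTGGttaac

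ATTGG began 48 bases before the start in H2-Aa, 59 in H2-Eb1, 61 in H2-DMb1, 90 in H2-DMb2, 43 in H2-Oa and 57 in H2-Ob. In H2-DMa it began 198 bases before the start of 1 window and was not in the other, so no stretch is printed. AACNNATGATG is the pattern that keeps the most bases identical over the windows of 4 genes, so its presence in these 4 was fixed in advance. Its first base lay 30 bases before that of ATTGG in H2-Eb1, 31 in H2-DMb1, 31 in H2-DMb2 and 28 in H2-Ob, nearly one spacing. Both strands were searched, and the patterns do not overlap in these stretches. Among all 32851 promoter windows of this length 37.4% held ATTGG, a short and common pattern, while 45 windows (0.137%) held AACNNATGATG. Windows with AACNNATGATG followed by ATTGG at such a spacing (up to 30 bases between them) numbered 5 (0.0152%), and these belonged to the 4 class II genes named and to 2310002L09Rik. As the pattern was built from those 4 genes, these shares are no independent support for a shared element in them. No windows were matched for H2-Ab1, Cd74 and Ciita.

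The libraries held 9948 barcodes and 65369018 UMIs in 2DG_aPDL1, 8701 and 61859753 in 2DG, 9764 and 62823127 in aPDL1, and 9655 and 73885214 in ctrl; between 0.744% and 0.908% of a library's barcodes also occurred in another. After filtering, 8554 cells (2DG_aPDL1), 7390 (2DG), 8338 (aPDL1) and 8389 (ctrl) were sorted into cell types by marker gates that used no class II gene. These gates took in 81.7%, 78.9%, 75.6% and 76.9% of the cells in the order just given, and the names below mean cells that carry those markers. B cells were 5.16% of 2DG_aPDL1 cells, 1.60% of 2DG cells, 2.58% of aPDL1 cells and 0.727% of ctrl cells, and the lymph node stromal chemokines Ccl21a and Ccl19 gave at most 1 and 3 UMIs in any library. The libraries thus held next to no RNA of these stromal markers. T cells numbered 2521 in 2DG_aPDL1, 2543 in 2DG, 2421 in aPDL1 and 355 in ctrl, and neutrophils 241, 298 and 228 in those treated libraries but 2641 in ctrl. Levels below are CPM, a gene's UMIs per 1000000 UMIs of its gate, which sets the molecules of one gene against all RNA molecules of that cell type and can be read across genes, since a 3′ UMI counts a molecule whatever its length. With 1 library per group no test was possible, no difference has a replicate check, and all bracketed intervals (95%, exact Poisson for CPM) cover counting error only. A gene is called higher or lower where 2 libraries differed by at least 1.5-fold with at least 50 UMIs in the higher one. A gene under that minimum in 1 library was thus counted only through the other, where it was higher.

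Class II RNA followed the professional presenting cells. H2-Aa was highest in type 2 conventional dendritic cells, with 4811 CPM in 2DG_aPDL1, 4978 in 2DG, 5109 in aPDL1 and 5792 in ctrl. It was close to that in type 1 conventional dendritic cells, with 4643 CPM in 2DG_aPDL1, 4904 in 2DG, 5985 in aPDL1 and 4971 in ctrl. Ranked by the median of the 4 libraries, C1q macrophages came next for H2-Aa (4497 CPM), followed by migratory dendritic cells (2434), B cells (2068), Spp1 or Arg1 macrophages (1964), classical monocytes (837) and non-classical monocytes (620). Conventional CD4 T cells (82.2), neutrophils (64.2), regulatory T cells (28.8), CD8 T cells (26.3) and NK cells (20.5) closed the order. The ranges of neighbouring cell types overlapped for 10 of the 12 neighbour pairs. The breaks lay between non-classical monocytes and conventional CD4 T cells and between neutrophils and regulatory T cells. Cd74 was the most abundant of the 10 in each of these cell types by the median, and its order was topped by type 1 conventional dendritic cells at 13051 CPM.

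**Figure D1:**
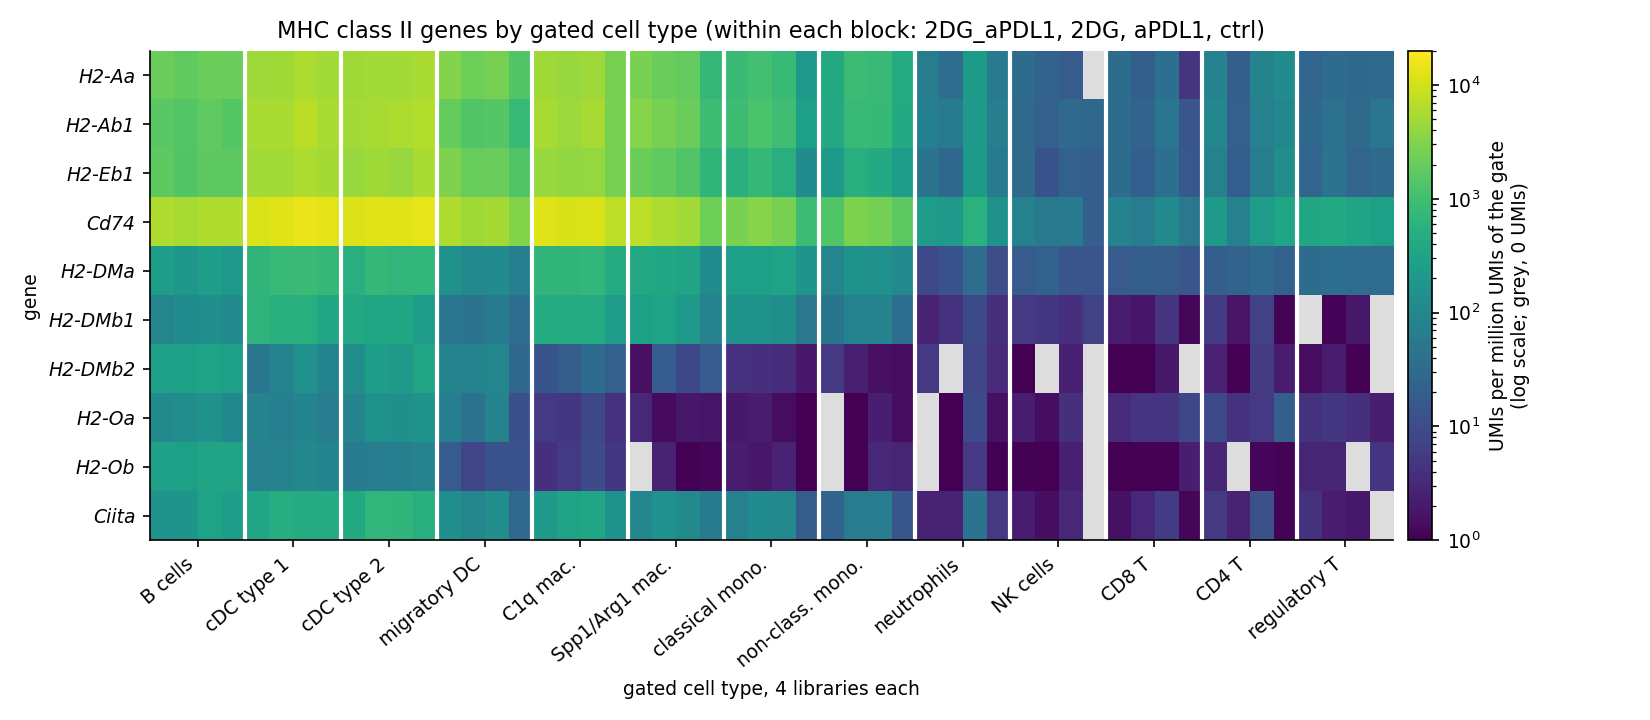
Heat map of the 10 class II genes (rows) in each marker-gated cell type and library (columns, 2DG_aPDL1, 2DG, aPDL1 and ctrl within each cell type); colour is CPM of the gate's UMIs on a log scale, and grey means 0 UMIs. H2-Aa in classical monocytes goes to 195 CPM in ctrl against 828 to 1051 CPM in the treated libraries, while H2-Ob stands out in B cells at 279 to 324 CPM.

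The H2-O genes and H2-DMb2 ordered the cell types differently from the classical chains, while H2-DMa and Ciita were led by the same 3 cell types as H2-Aa. H2-Ob, the beta chain of H2-O, was highest in B cells, with 288 CPM in 2DG_aPDL1, 279 in 2DG, 324 in aPDL1 and 322 in ctrl. In type 1 conventional dendritic cells, next in the order, it reached 73.9 CPM in 2DG_aPDL1, 83.2 in 2DG, 101 in aPDL1 and 85.6 in ctrl, so the 2 ranges did not overlap. H2-Oa, its alpha chain partner, was at 84.3 CPM in 2DG_aPDL1, 157 in 2DG, 145 in aPDL1 and 161 in ctrl in type 2 conventional dendritic cells. In B cells it was at 111 CPM in 2DG_aPDL1, 131 in 2DG, 161 in aPDL1 and 99.997 in ctrl, within the same range. The chains were therefore not found in one ratio: there were 0.310 to 0.497 H2-Oa UMIs per H2-Ob UMI in B cells and 1.46 to 2.44 in type 2 conventional dendritic cells. H2-O together made 0.634 to 0.717 UMIs per H2-DM UMI in B cells, 0.178 to 0.344 in migratory, 0.137 to 0.193 in type 2 and 0.108 to 0.127 in type 1 conventional dendritic cells. In monocytes or macrophages the same ratio was 0.00767 to 0.0122. These are ratios of RNA molecules, and each range is over the 4 libraries.

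The choice between the H2-DM beta chains also went with the cell type. H2-DMb2 made up 68.8 to 76.2% of the UMIs of both beta chain genes in B cells and 43.6 to 65.4% in migratory dendritic cells. In C1q macrophages it made up 2.70 to 8.02%, in classical monocytes 2.30 to 3.67%, in non-classical monocytes 1.79 to 10%, in Spp1 or Arg1 macrophages 0.543 to 17.8%, and in type 1 conventional dendritic cells 7.23 to 22.7%. B cells thus carried mostly H2-DMb2, and monocyte and macrophage subsets mostly H2-DMb1. Type 2 conventional dendritic cells lay between them, and there the share was 25.1% in 2DG_aPDL1, 42.5% in 2DG, 36.0% in aPDL1 and 59.2% in ctrl. H2-DMa, the common alpha chain, was at 0.477 to 0.658 UMIs per beta chain UMI in B cells. Among the classical chains, migratory dendritic cells held 0.555 to 0.612 H2-Ab1 UMIs per H2-Aa UMI, B cells 0.706 to 0.811 and monocytes or macrophages 1.10 to 1.17. H2-Eb1 per H2-Aa was 0.526 to 0.574 in non-classical monocytes, 0.611 to 0.691 in classical monocytes and 0.893 to 0.993 in C1q macrophages.

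**Figure D2:**
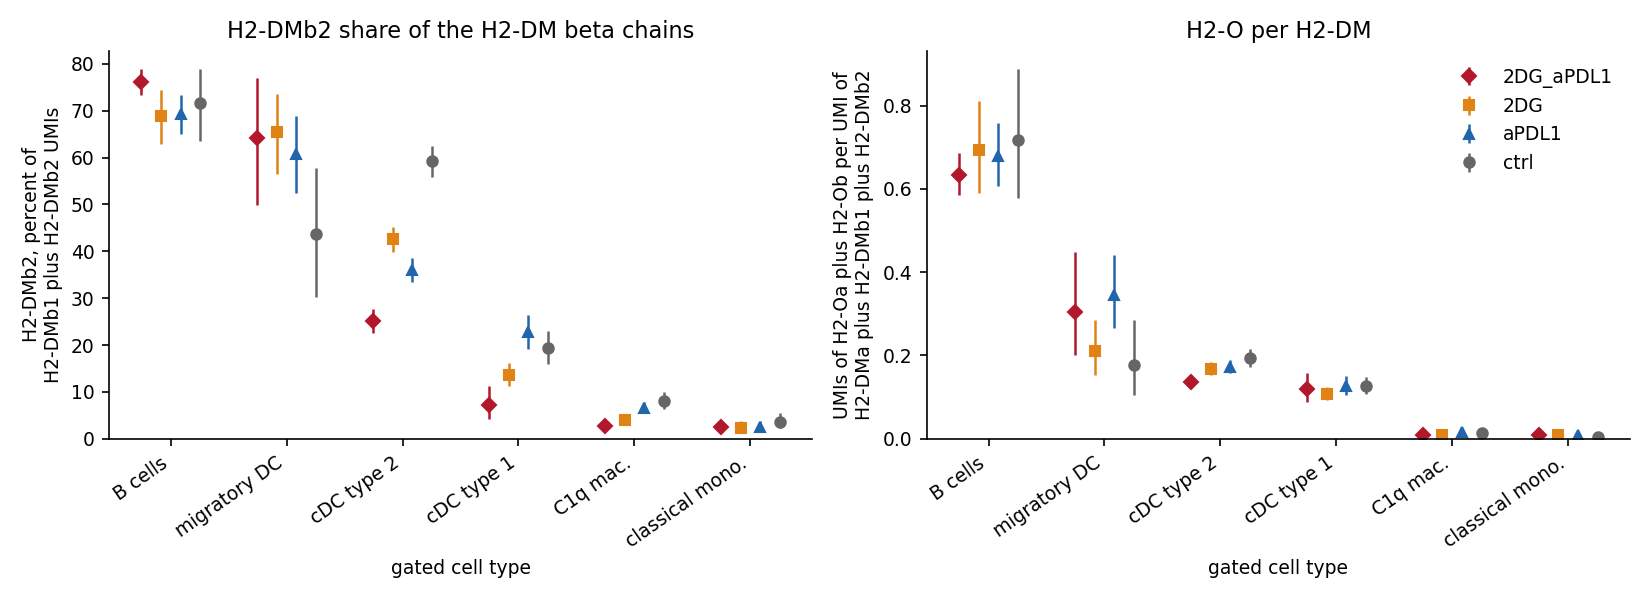
Share of H2-DMb2 in the UMIs of both H2-DM beta chain genes (percent, left) and H2-O UMIs per H2-DM UMI (right) in each cell type, 1 point per library. B cells lie at 68.8 to 76.2% and 0.634 to 0.717, and classical monocytes at 2.30 to 3.67% in the left panel.

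Monocytes or macrophages, the largest gate outside lymphocytes and neutrophils, held 3083 cells in 2DG_aPDL1, 2246 in 2DG, 2768 in aPDL1 and 3130 in ctrl. They supplied 71.7% of the summed class II UMIs (H2-Aa, H2-Ab1, H2-Eb1 and Cd74) of 2DG_aPDL1 cells, 63.5% in 2DG, 60.02% in aPDL1 and 54.4% in ctrl. H2-Aa was at 2793 CPM in 2DG_aPDL1 (2772 to 2814), 2875 in 2DG (2851 to 2898), 2436 in aPDL1 (2415 to 2457) and 850.4 in ctrl (841 to 860.0). The 3 treated libraries lay close together and ctrl well below them. The log2 ratio over ctrl was 1.72 for 2DG_aPDL1 (1.70 to 1.74), 1.76 for 2DG (1.74 to 1.78) and 1.52 for aPDL1 (1.498 to 1.54). H2-Ab1 was at 3115 CPM in 2DG_aPDL1, 3181 in 2DG, 2844 in aPDL1 and 936 in ctrl, and H2-Eb1 at 2329, 2459 and 1980 CPM in those treated libraries against 783 in ctrl. Both thus repeated the order of H2-Aa.

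All 10 class II genes were higher in 2DG than in ctrl monocytes or macrophages, where 12.2% of all genes tested were, and all 10 in aPDL1, where 13.2% were. In 2DG_aPDL1 9 of 10 were higher than in ctrl, against 12.4% of all genes. The median log2 ratio over ctrl of the 10 genes was 1.48 in 2DG_aPDL1, 1.59 in 2DG and 1.40 in aPDL1, while over all genes tested it was 0.01, 0.12 and 0.11 in the same order. The 3 ratios share the ctrl library. Cd74 was at 7530.5 CPM in 2DG_aPDL1, 7826 in 2DG, 6674 in aPDL1 and 2697 in ctrl. H2-DMa, at 449 CPM in 2DG_aPDL1, 482 in 2DG, 450 in aPDL1 and 224 in ctrl, moved least of the abundant members, with log2 ratios over ctrl of 1.004, 1.11 and 1.01. H2-DMb1 moved like the classical chains, at 310 CPM in 2DG_aPDL1, 320 in 2DG, 278 in aPDL1 and 102 in ctrl.

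The low-level members had wider intervals. H2-DMb2 was at 10.1 CPM in 2DG_aPDL1 (8.87 to 11.4), 14.0 in 2DG (12.4 to 15.7), 14.1 in aPDL1 (12.6 to 15.8) and 8.02 in ctrl (7.12 to 9.02), and it was the member not called in 2DG_aPDL1. H2-Oa was at 3.15 CPM in 2DG_aPDL1, 4.30 in 2DG, 4.16 in aPDL1 and 1.67 in ctrl, on 59 to 92 UMIs per library. H2-Ob was at 2.75 CPM in 2DG_aPDL1, 3.71 in 2DG, 4.89 in aPDL1 and 1.59 in ctrl. Ciita, the co-activator, was at 144 CPM in 2DG_aPDL1 (140 to 149), 218 in 2DG (212 to 225), 198 in aPDL1 (192 to 204) and 52.0 in ctrl (49.6 to 54.4). Its log2 ratios over ctrl, 1.47 for 2DG_aPDL1, 2.07 for 2DG and 1.93 for aPDL1, placed the combination below either single treatment. Set against 2DG alone, 2DG_aPDL1 had Ciita as its 1 lower member (log2 ratio -0.60, -0.66 to -0.53; 6.89% of all genes were lower) and no higher member (4.46%). Set against aPDL1 alone, it had H2-Ob as its 1 lower member (log2 ratio -0.83, -1.29 to -0.38; 7.92%) and no higher member (4.42%). The summed class II level, at 15768 CPM in 2DG_aPDL1, 16340 in 2DG and 13934 in aPDL1, gave log2 ratios of -0.05 over 2DG and 0.18 over aPDL1, against 1.58 over the ctrl level of 5266 CPM.

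Depth, cell states and the makeup of the gate moved with this difference. The median UMIs per cell were 7404 in 2DG_aPDL1, 8258.5 in 2DG, 7305.5 in aPDL1 and 11103.5 in ctrl. Without scaling to the gate's UMIs, the mean class II UMIs per cell gave log2 ratios over ctrl of 1.11 for 2DG_aPDL1, 1.31 for 2DG and 0.91 for aPDL1. When all cells were clustered without class II genes, the largest monocyte or macrophage cluster was cluster 1 in ctrl, with 2808 cells of ctrl against 158 of 2DG_aPDL1, 223 of 2DG and 510 of aPDL1. In the treated libraries it was cluster 0, with 1954 cells of 2DG_aPDL1, 1172 of 2DG and 1273 of aPDL1 against 252 of ctrl. The gate therefore held different cell states in ctrl and in the other libraries, and since library and treatment coincide the clusters cannot be told apart from the libraries. Within the gate, C1q macrophages were 20.05% of the cells in 2DG_aPDL1, 22.9% in 2DG, 16.5% in aPDL1 and 10.7% in ctrl, and classical monocytes 31.0%, 23.4% and 32.1% in those treated libraries and 35.4% in ctrl. Cells past several subset gates, the largest group in ctrl, were 23.9% in 2DG_aPDL1, 24.6% in 2DG, 21.4% in aPDL1 and 38.4% in ctrl. Cells past no subset gate were 15.8%, 18.3% and 17.5% in those treated libraries and 7.25% in ctrl. The marker-defined subsets, the cells past several subset gates and the cells past none were also weighed equally as groups. The log2 ratio of the class II sum over ctrl was then 1.21 for 2DG_aPDL1, 1.19 for 2DG and 1.08 for aPDL1. The part that cell state plays in what remains was not tested.

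Cell by cell, class II UMIs were found in a smaller share of ctrl monocytes or macrophages. After each cell was thinned to 2000 UMIs, 62.1% of 2DG_aPDL1 cells, 69.7% of 2DG cells, 55.8% of aPDL1 cells and 25.8% of ctrl cells held at least 10 class II UMIs. Cells with none made up 16.5% in 2DG_aPDL1, 11.9% in 2DG, 19.6% in aPDL1 and 40.1% in ctrl. Among CD8 T cells, set beside them for free RNA, cells with none at this depth were 81.6% in 2DG_aPDL1, 78.5% in 2DG, 79.7% in aPDL1 and 89.7% in ctrl. A thinned cell without a class II UMI is not shown to lack the RNA. The median cell held 21 class II UMIs in 2DG_aPDL1, 26 in 2DG, 14 in aPDL1 and 1 in ctrl. Class II RNA in ctrl was concentrated in few cells: the 10% of cells with the most held 67.9% of the UMIs there, against 36.0% in 2DG_aPDL1, 34.4% in 2DG and 41.1% in aPDL1. The chains went together from cell to cell in this gate. The Spearman correlation with H2-Aa over thinned cells of one library was 0.769 to 0.887 for H2-Ab1, 0.798 to 0.871 for H2-Eb1 and 0.775 to 0.889 for Cd74. It was 0.375 to 0.440 for H2-DMa, 0.414 to 0.467 for H2-DMb1 and 0.302 to 0.412 for Ciita, which have far fewer UMIs per cell. In B cells, nearly all of which carried class II RNA, H2-Ab1 and H2-Aa had a correlation of 0.194 to 0.344. These values describe cells of one library each and share its depth.

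**Figure D3:**
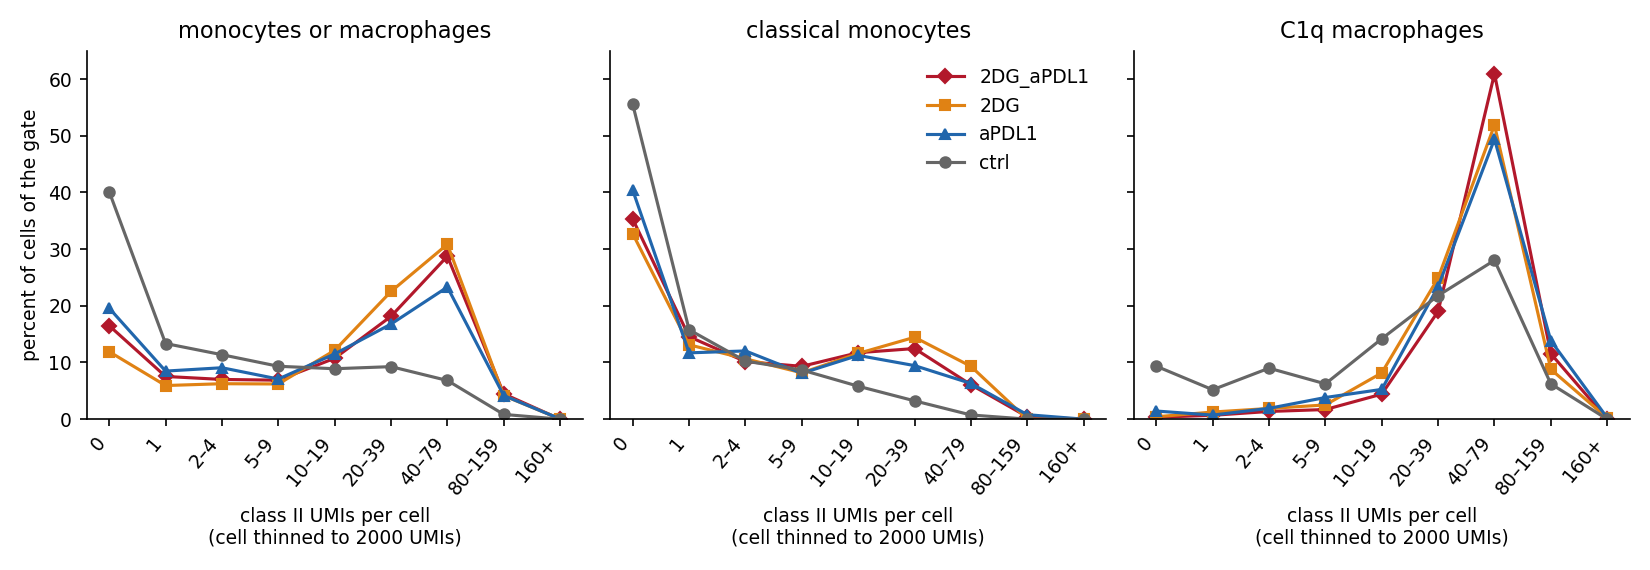
Percent of cells (vertical axis) by the number of class II UMIs per cell after thinning to 2000 UMIs (horizontal axis), for all monocytes or macrophages, classical monocytes and C1q macrophages, 1 line per library. Among all monocytes or macrophages 40.1% of ctrl cells sit at 0 UMIs, against 11.9 to 19.6% of the treated libraries' cells.

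The difference from ctrl was found in 3 of the 4 marker-defined subsets in all treated libraries. Classical monocytes, the Ly6c2+ precursors that enter from blood, held H2-Aa at 847 CPM in 2DG_aPDL1, 1051 in 2DG, 828 in aPDL1 and 195 in ctrl. Of the 7 members with enough UMIs, 7 were higher than ctrl in 2DG_aPDL1 (14.4% of all genes), 7 in 2DG (16.4%) and 7 in aPDL1 (17.1%). Their H2-DMa, already at 166 CPM in ctrl, reached 269 CPM in 2DG_aPDL1, 280.4 in 2DG and 297 in aPDL1, so the log2 ratios of 0.70, 0.76 and 0.84 were far below those of H2-Aa (2.12, 2.43 and 2.09). Ciita stood at 78.1 CPM in 2DG_aPDL1, 120.5 in 2DG, 108 in aPDL1 and 18.6 in ctrl. At least 10 thinned class II UMIs were found in 30.7% of 2DG_aPDL1 classical monocytes, 35.4% in 2DG, 27.8% in aPDL1 and 9.78% in ctrl. Most classical monocytes of every library thus stayed under that level.

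C1q macrophages, which carry the complement C1q genes, had the highest class II level of the subsets in every library. Their H2-Aa was at 4872 CPM in 2DG_aPDL1, 4322 in 2DG, 4672 in aPDL1 and 2669 in ctrl. Of 8 members with enough UMIs, 5 were higher than ctrl in 2DG_aPDL1 (10.7% of all genes), 5 in 2DG (7.54%) and 8 in aPDL1 (8.97%). The ctrl cells of this subset were already rich in class II RNA, and the log2 ratios were below those of classical monocytes. One member went the other way, as H2-DMb2 was at 12.9 CPM in 2DG_aPDL1 against 20.6 CPM in ctrl (18.7% of all genes were lower), while 2DG had 18.9 and aPDL1 31.3 CPM. Spp1 or Arg1 macrophages held H2-Aa at 2752 CPM in 2DG_aPDL1, 2108 in 2DG, 1819 in aPDL1 and 737 in ctrl. There 7 of 7 members were higher than ctrl in 2DG_aPDL1 (16.1% of all genes), in 2DG (18.4%) and in aPDL1 (15.5%), and 3 of 7 were higher in 2DG_aPDL1 than in aPDL1 (8.52%). These rest on 83 cells in 2DG_aPDL1, 75 in 2DG, 143 in aPDL1 and 182 in ctrl.

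Non-classical monocytes, the blood-patrolling type marked by Ace and Treml4, were the exception in the combination. H2-Aa was at 408 CPM in 2DG_aPDL1, 902 in 2DG, 796 in aPDL1 and 443 in ctrl. Each single treatment lay above ctrl and the combination lay at the ctrl level. Ciita was at 23.3 CPM in 2DG_aPDL1, 67.0 in 2DG, 66.9 in aPDL1 and 14.0 in ctrl. Against ctrl, 6 of 7 members were higher in 2DG (15.4% of all genes) and 6 of 7 in aPDL1 (15.8%), but 0 of 6 in 2DG_aPDL1 (18.1%). Against the single treatments, 7 of 7 members were lower in 2DG_aPDL1 than in aPDL1 (5.86%) and 7 of 7 than in 2DG (5.57%). Ciita and H2-DMb1 were under 50 UMIs in ctrl, and Ciita also in 2DG_aPDL1. There they entered these counts only through the library with the higher level. The summed level was 2360 CPM in 2DG_aPDL1, 5056 in 2DG, 4541 in aPDL1 and 2747 in ctrl. A few cells carried much of it: 11 of 173 cells held 50% of the UMIs in 2DG_aPDL1, 16 of 151 in 2DG, 18 of 182 in aPDL1 and 5 of 67 in ctrl. Without the richest 1% of cells of each library the sum was 2032 CPM in 2DG_aPDL1, 4639 in 2DG, 4216 in aPDL1 and 2431 in ctrl, in the same order. Under a stricter gate the log2 ratios over ctrl of the sum were -0.76 for 2DG_aPDL1, 0.22 for 2DG and 0.27 for aPDL1, so neither single treatment passed 1.5-fold, while the ratios of 2DG_aPDL1 over aPDL1 (-1.03, against -0.94 under the gate used) and over 2DG (-0.98, against -1.10) still did.

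**Figure D4:**
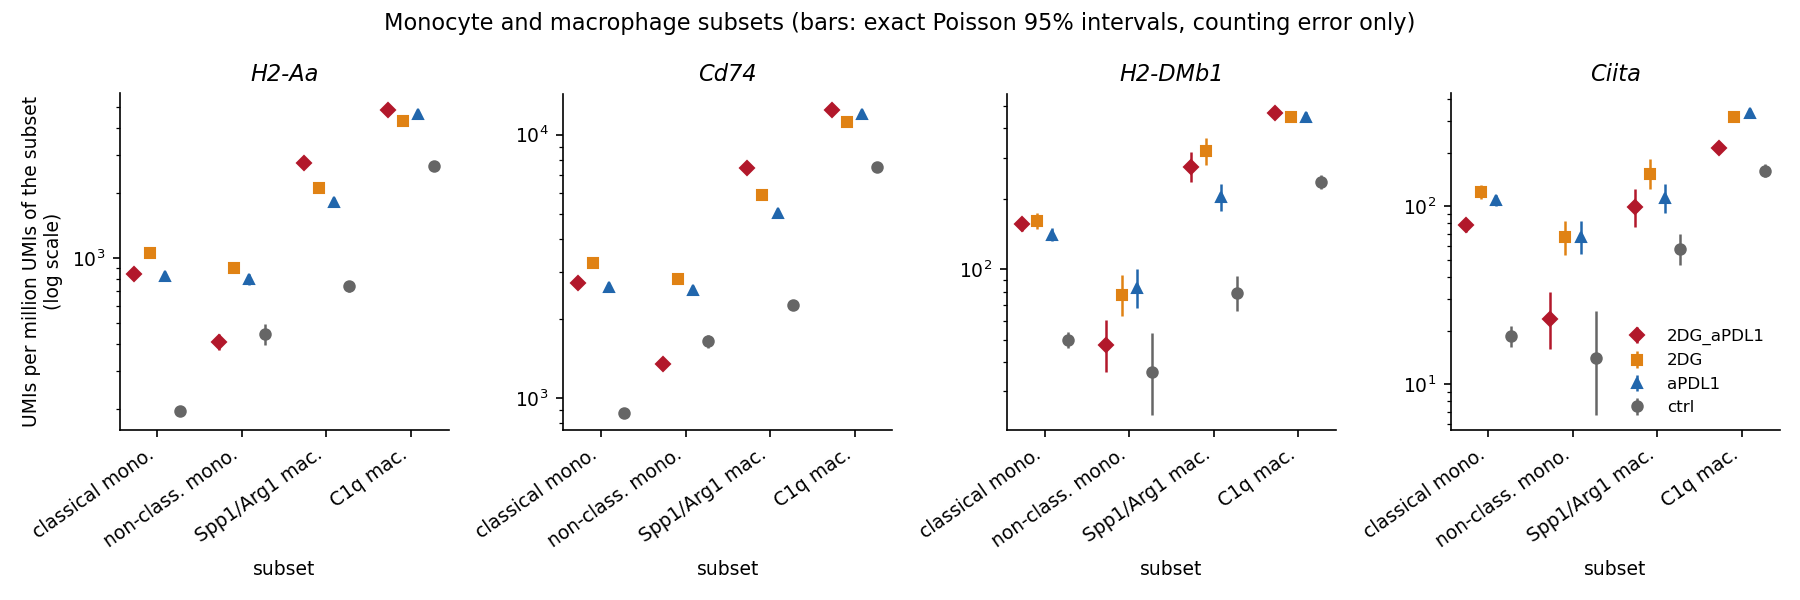
H2-Aa, Cd74, H2-DMb1 and Ciita (panels) in the 4 monocyte and macrophage subsets, as CPM of the subset's UMIs on a log axis, with points for 2DG_aPDL1, 2DG, aPDL1 and ctrl and bars for exact Poisson 95% intervals. In non-classical monocytes the 2DG_aPDL1 point for H2-Aa lies at 408 CPM beside ctrl at 443 CPM, with 2DG at 902 and aPDL1 at 796 CPM.

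Conventional dendritic cells kept high levels of the classical chains in every library. In type 2 cells Cd74 was at 11746 CPM in 2DG_aPDL1, 12140 in 2DG, 12343 in aPDL1 and 13911 in ctrl. No member passed 1.5-fold between 2DG and ctrl in type 2 cells (10.1% of all genes were higher and 8.05% lower) or in type 1 cells (6.04% and 6.69%). The members that passed in the other libraries were the accessory ones. In type 2 cells H2-DMb1 was higher than ctrl (234 CPM) in 2DG_aPDL1 (387 CPM; 1 of 10 members, with 15.1% of all genes) and in aPDL1 (375 CPM; 1 of 10, with 12.3%). H2-DMb2 in turn was at 130 CPM in 2DG_aPDL1, 256 in 2DG, 211 in aPDL1 and 339 in ctrl, lower than ctrl in aPDL1 (1 of 10 members; 9.31% of all genes) and, with H2-Oa, in 2DG_aPDL1 (2 of 10; 15.2%). H2-DMb1 thus lay above ctrl and H2-DMb2 below it in 2DG_aPDL1 and aPDL1. These counts of members were near the shares of all genes, and the split of reads between the beta chain genes is uncertain. Ciita was at 406 CPM in 2DG_aPDL1, 673 in 2DG, 650 in aPDL1 and 502 in ctrl. Together with H2-DMb2 and H2-Oa it made 3 of 10 members lower in 2DG_aPDL1 than in aPDL1 (11.5% of all genes) and 3 of 10 lower than in 2DG (11%). The monocyte and macrophage marker list stood in these cells at 7.78 to 16.9% of its level in that gate, and its part in the beta chain levels was not tested.

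Type 1 conventional dendritic cells numbered 24 in 2DG_aPDL1, 79 in 2DG, 54 in aPDL1 and 66 in ctrl. H2-DMb2 was at 48.3 CPM in 2DG_aPDL1, 84.7 in 2DG, 149 in aPDL1 and 88.3 in ctrl. It was higher than ctrl in aPDL1 (1 of 10 members; 9.22% of all genes) and lower than ctrl in 2DG_aPDL1 (1 of 10; 15.8%). H2-DMb1 was at 619 CPM in 2DG_aPDL1, 540 in 2DG, 507 in aPDL1 and 370 in ctrl, and was the 1 member higher than ctrl in 2DG_aPDL1 (10.5%). The monocyte and macrophage marker list stood here at 34.5 to 52.4% of its level in that gate.

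Migratory dendritic cells, the Ccr7+ state that carries antigen to lymph nodes, had more class II RNA in each treated library than in ctrl. H2-Aa was at 3204 CPM in 2DG_aPDL1, 2250 in 2DG, 2619 in aPDL1 and 1369 in ctrl. Ciita was at 140 CPM in 2DG_aPDL1, 92.9 in 2DG, 135 in aPDL1 and 29.1 in ctrl. H2-Oa had 71.0 CPM in 2DG_aPDL1, 42.0 in 2DG, 82.8 in aPDL1 and 11.2 in ctrl. Of the members with enough UMIs, 6 of 6 were higher than ctrl in 2DG_aPDL1 (8.34% of all genes), 6 of 7 in 2DG (6.88%) and 9 of 9 in aPDL1 (8.34%). H2-DMb1, H2-DMb2, H2-Oa and Ciita were under 50 UMIs in ctrl, so they entered these counts only where the treated library was high. The counts are in part built in for these members. The summed level of 14155 CPM in 2DG_aPDL1, 10421 in 2DG, 11423 in aPDL1 and 6701 in ctrl gave log2 ratios over ctrl of 1.08, 0.64 and 0.77. These gates held 47 cells of 2DG_aPDL1, 97 of 2DG, 99 of aPDL1 and 81 of ctrl, and the cells were mixed: the median thinned cell held 28 class II UMIs in 2DG_aPDL1, 12 in 2DG, 14.5 in aPDL1 and 4 in ctrl. The level of the monocyte and macrophage markers in the gate, relative to their own gate, was from 0.407% in the lowest library to 11.9% in ctrl, and its part in the difference was not tested.

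B cells showed little difference between libraries in the classical chains and Cd74. H2-Aa was at 2041 CPM in 2DG_aPDL1, 1767 in 2DG, 2187 in aPDL1 and 2094 in ctrl. Cd74 was at 6165 CPM in 2DG_aPDL1, 5537 in 2DG, 6228 in aPDL1 and 6030 in ctrl. H2-DMb2 was at 289 CPM in 2DG_aPDL1, 276 in 2DG, 315 in aPDL1 and 281 in ctrl. None of the 10 members passed 1.5-fold between 2DG and ctrl (9.75% of all genes were higher and 6.33% lower). H2-Oa was the 1 member higher in aPDL1 (161 CPM) than in ctrl (99.997 CPM, on 36 UMIs), where 14% of all genes were higher. Ciita, at 163 CPM in 2DG_aPDL1, 169 in 2DG, 307 in aPDL1 and 244 in ctrl, was the 1 member lower in 2DG_aPDL1 than in ctrl, where 13.3% of all genes were lower. Against aPDL1, 2 of 10 members were lower in 2DG_aPDL1 (9.27% of all genes): Ciita, with a log2 ratio of -0.91, and H2-DMb1, at 90.5 CPM in 2DG_aPDL1 and 139 CPM in aPDL1 (-0.62). Since B cells numbered 441 in 2DG_aPDL1, 118 in 2DG, 215 in aPDL1 and 61 in ctrl, they gave 5.17% of the class II UMIs of 2DG_aPDL1, 1.28% of 2DG, 2.53% of aPDL1 and 1.19% of ctrl.

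A list of 27 other genes of class II regulation, antigen processing and costimulation was counted in monocytes or macrophages. Over ctrl, 10 of 26 tested genes were higher and 3 lower in 2DG_aPDL1 (12.4% and 13.3% of all genes), 8 of 27 higher and 2 lower in 2DG (12.2% and 8.92%), and 7 of 26 higher and 3 lower in aPDL1 (13.2% and 8.78%). H2-Eb2, a relative of H2-Eb1, was also higher in each treated library than in ctrl, at 12.3 CPM in 2DG_aPDL1, 22.6 in 2DG, 16.97 in aPDL1 and 0.624 in ctrl. Unlike the classical chains, it was lower in 2DG_aPDL1 than in 2DG (6.89% of all genes were). Irf1, a transcription factor induced by interferon gamma, was at 373 CPM in 2DG_aPDL1, 347 in 2DG, 361 in aPDL1 and 116 in ctrl. Ifng itself was nearly without UMIs in this gate, and in T cells it was at 520 CPM in 2DG_aPDL1, 355 in 2DG, 447 in aPDL1 and 145 in ctrl. Of the 7 promoter factors on the list only Rfx5 passed 1.5-fold, with 6.65 CPM in 2DG_aPDL1, 6.92 in 2DG, 6.43 in aPDL1 and 3.86 in ctrl.

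The proteases of the pathway did not move as one group. Ctss (cathepsin S), which trims the invariant chain, was at 2668 CPM in 2DG_aPDL1, 2385 in 2DG, 2222 in aPDL1 and 1582 in ctrl. Ctsl (cathepsin L) went the other way, at 414 CPM in 2DG_aPDL1, 407 in 2DG, 357 in aPDL1 and 757 in ctrl. Ctsd (cathepsin D) was at 426 CPM in 2DG_aPDL1, 515 in 2DG, 478 in aPDL1 and 772 in ctrl. Among the costimulatory genes Cd40 was higher in each treated library than in ctrl, at 91.1 CPM in 2DG_aPDL1, 54.0 in 2DG, 58.5 in aPDL1 and 19.6 in ctrl. Unlike the class II sum, it was also higher in 2DG_aPDL1 than in 2DG (log2 ratio 0.75) and than in aPDL1 (0.64). Cd80 was at 119 CPM in 2DG_aPDL1, 130 in 2DG, 157 in aPDL1 and 197 in ctrl. Cd86 was at 1158 CPM in 2DG_aPDL1, 803 in 2DG, 717 in aPDL1 and 625 in ctrl, and 2DG_aPDL1 passed 1.5-fold over aPDL1 (log2 ratio 0.69) but not over 2DG (0.53).

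Over 52 sums (13 cell types in 4 libraries) the genes whose log2 level was most like that of the class II sum, among 6555 genes, were Gm20513 (Pearson r = 0.963), Ifi30 (0.942), Ly86 (0.930), Tbc1d9 (0.929), Plekho1 (0.922), Erp29 (0.922), Cd86 (0.918) and Fgd2 (0.917). Gm20513 is the antisense gene that overlaps H2-Eb1, and the reads of the pair cannot be told apart without strand. Ifi30 encodes a thiol reductase of antigen processing, and Ly86 encodes MD-1, a partner of a toll-like receptor relative. The sums share library and depth within each library. Among the members outside the sum itself, Ciita had r = 0.961, H2-DMa 0.949, H2-DMb1 0.927, H2-DMb2 0.808, H2-Ob 0.662 and H2-Oa 0.588. H2-O therefore followed the class II sum across cell types less closely than did H2-DM or Ciita.

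T cells and NK cells held class II UMIs at a low level, given here because free RNA in droplets also yields UMIs. The summed level in T cells was 239 CPM in 2DG_aPDL1, 185 in 2DG, 279.5 in aPDL1 and 365 in ctrl. Without the 1% of T cells with the most class II UMIs it was 122 CPM in 2DG_aPDL1, 158 in 2DG, 150.3 in aPDL1 and 134 in ctrl. Without those few cells ctrl no longer led the order. In ctrl 1 cell held 546 class II UMIs, 56.5% of those of all 355 T cells, and carried 3 of 7 migratory dendritic cell, 3 of 11 monocyte or macrophage and 3 of 9 neutrophil markers. In aPDL1 1 cell held 986, or 22.0%, and carried 5 of 6 type 1 and 4 of 6 type 2 dendritic cell markers. NK cells were at 171 CPM in 2DG_aPDL1, 111 in 2DG, 129 in aPDL1 and 67.8 in ctrl, where 20 NK cells gave no H2-Aa UMI, which allows up to 3 UMIs. The monocyte and macrophage marker list stood at 0.559 to 0.988% of its own gate in T cells and at 0.536 to 0.678% in NK cells. The class II sum in T cells was 1.13 to 6.94% of its monocyte or macrophage level. The H2-O genes, low in both gates, differed: H2-Oa was at 116 to 656% of that level and H2-Ob at 19.1 to 143%. The source of these UMIs was not tested.

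Regulatory T cells gave Cd74 UMIs in a larger share of cells than the other T cell gates did. At least 1 Cd74 UMI was found in 69.5% of regulatory T cells in 2DG_aPDL1, 77.9% in 2DG, 72.4% in aPDL1 and 72.5% in ctrl. In conventional CD4 T cells it was found in 29.2% in 2DG_aPDL1, 35% in 2DG, 31.7% in aPDL1 and 30.6% in ctrl, and in CD8 T cells in 25.8%, 28.4% and 30.6% in those treated libraries and 18.9% in ctrl. Thinned to 2000 UMIs, the shares in regulatory T cells were 45.8% in 2DG_aPDL1, 44.8% in 2DG, 41.7% in aPDL1 and 41.2% in ctrl. The thinned shares in the same order of libraries were 11.5%, 14.5%, 13.5% and 15% in conventional CD4 T cells and 8.80%, 11.03%, 10.3% and 7.48% in CD8 T cells, so the order of the gates held at equal depth in each of the 4 libraries.

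Over all cells of each gate, the Cd74 level separated these gates less well than the share of cells. Cd74 was at 378 CPM in 2DG_aPDL1, 409 in 2DG, 327 in aPDL1 and 274 in ctrl in regulatory T cells. In conventional CD4 T cells it was at 209.5 CPM in 2DG_aPDL1, 75.4 in 2DG, 233 in aPDL1 and 355 in ctrl, so the ranges overlapped and ctrl had the gates in the other order. Few cells weighed on this: 1 ctrl conventional CD4 T cell held 83.6% of that gate's class II UMIs. Without the richest 1% of cells the class II sum was 111 CPM in 2DG_aPDL1, 125 in 2DG, 164 in aPDL1 and 102 in ctrl. In regulatory T cells it was then 426, 430, 378 and 307 CPM in the same order. Cd74 alone was not recomputed in this way. H2-Aa in regulatory T cells was at 25.2 CPM in 2DG_aPDL1, 31.9 in 2DG, 27.3 in aPDL1 and 30.2 in ctrl. There were 15.0 Cd74 UMIs per H2-Aa UMI in 2DG_aPDL1, 12.8 in 2DG, 11.97 in aPDL1 and 9.08 in ctrl, against 2.66 to 2.89 over all barcodes and 2.58 to 3.78 in conventional CD4 T cells. In CD8 T cells the ratio was 2.47 in 2DG_aPDL1, 3.19 in 2DG and 2.90 in aPDL1, but 11.5 in ctrl, there on 46 Cd74 and 4 H2-Aa UMIs, so only the treated libraries set regulatory T cells above CD8 T cells. H2-DMa in regulatory T cells was at 33.6 CPM in 2DG_aPDL1, 36.3 in 2DG, 34.8 in aPDL1 and 34.9 in ctrl, against 20.2 to 29.4 CPM in conventional CD4 T cells. Its UMIs per H2-Aa UMI, 1.14 to 1.33, lay within the range of CD8 T cells (0.488 to 3) and overlapped that of conventional CD4 T cells (0.180 to 1.18). The monocyte and macrophage marker list stood in regulatory T cells at 0.447 to 1.02% of its own gate, and the list of B cell markers at 0.0558 to 0.284%.

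**Figure D5:**
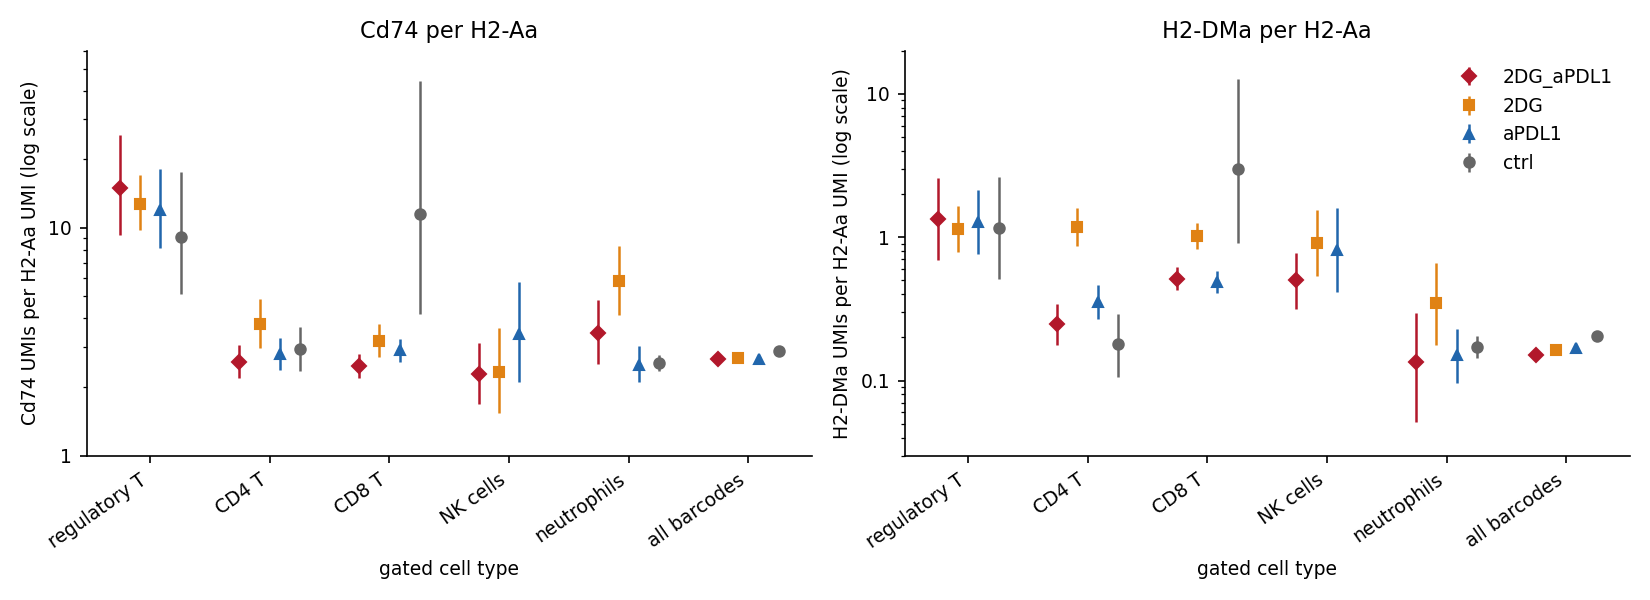
Cd74 UMIs per H2-Aa UMI (left) and H2-DMa UMIs per H2-Aa UMI (right) on log axes, by cell type, 1 point per library; ctrl NK cells have no point because they gave no H2-Aa UMI. Regulatory T cells lie at 9.08 to 15.0 in the left panel, where conventional CD4 T cells lie at 2.58 to 3.78 and CD8 T cells at 2.47 to 11.5.

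Neutrophils gave no stable order of the libraries. Their summed level was 417 CPM in 2DG_aPDL1, 327 in 2DG, 1215 in aPDL1 and 344 in ctrl. In aPDL1 all 7 members with enough UMIs were higher than in ctrl, where 28.3% of all genes were. A single aPDL1 cell held 478 class II UMIs, 51.6% of those of the 228 cells, on 13964 UMIs in all (the gate's median was 2637.5), and it carried 5 of 6 type 1 and 2 of 6 type 2 dendritic cell markers. Without the richest 1% of cells of each library the sum was 254 CPM in 2DG_aPDL1, 207 in 2DG, 288 in aPDL1 and 109 in ctrl. The aPDL1 level then no longer stood apart, and ctrl was lowest. At 2000 UMIs per cell, any class II UMI was found in 42.2% of neutrophils in 2DG_aPDL1, 33.7% in 2DG, 38.0% in aPDL1 and 21.4% in ctrl, and without thinning in 50.2%, 49.0%, 49.6% and 39.0%. Among CD8 T cells the thinned share was 18.4% in 2DG_aPDL1, 21.5% in 2DG, 20.3% in aPDL1 and 10.3% in ctrl. The neutrophil gate held the monocyte and macrophage marker list at 30.1 to 35.5% of its own gate, and the part of that in the class II level was not tested.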

How the data were processed

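Each deposited table held whole-number UMI counts for genes and cell barcodes, without normalization, per the file headers. The matrix headers name Cell Ranger 7.0.0, whereas the submitters' processing notes name Cell Ranger 3.1.0 and mm10. Whether intronic or antisense reads were counted was not stated in either.

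Cells needed at least 500 genes and no more than 10% mitochondrial UMIs, and doublets scored with Scrublet were removed at 0.8% per 1000 barcodes (scanpy 1.11.5, Python 3.11.15, numpy 2.4.6, pandas 2.3.3). Cell types were gated on detected markers, for example 4 of 7 for T cells and B cells, 5 of 11 for monocytes or macrophages, 5 of 9 for neutrophils and 3 of 6 for type 2 dendritic cells; gates under 20 cells were left out. The members and gene lists were chosen with earlier results of these data known; the 10 members are always named, listed pathway genes by example, and the 8 most similar genes by correlation. UMIs were summed per gate and library, log2 ratios used counts plus 0.5, and intervals were exact (scipy 1.17.1). Alternatives included TMM factors (edgeR 4.0.16), other gates and Leiden clusters (neighbours with scikit-learn 1.9.0). The size rule was tested on simulated counts. Transcripts were aligned with Biopython 1.88.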

Additional observations from a re-analysis of the deposited data

Results flagged for a closer look

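For the values below, one treatment moved a class II gene up by at least 1.5-fold in one background and down by at least that in the other (or the reverse), with single libraries compared, so that the difference was not tested. Each value is a log2 ratio of CPM. The comparisons within a pair share no library, but the 2DG pair and the aPDL1 pair rearrange the same 4 libraries and are not separate findings.

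In non-classical monocytes, 2DG over ctrl and 2DG_aPDL1 over aPDL1 pointed in opposite directions for 7 quantities. The values were 1.02 and -0.96 for H2-Aa, 0.92 and -0.97 for H2-Ab1, 1.11 and -0.96 for H2-Eb1, 0.79 and -0.93 for Cd74. They were 1.07 and -0.80 for H2-DMb1, 2.19 and -1.51 for Ciita, and 0.88 and -0.94 for the class II sum. The aPDL1 comparison, aPDL1 over ctrl against 2DG_aPDL1 over 2DG, gave 0.84 and -1.14 for H2-Aa, 0.83 and -1.05 for H2-Ab1, 0.80 and -1.27 for H2-Eb1, and 0.65 and -1.07 for Cd74. It gave 1.16 and -0.71 for H2-DMb1, 2.19 and -1.51 for Ciita, and 0.72 and -1.10 for the sum.

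Ciita also pointed in opposite directions in other monocyte and macrophage gates. Under aPDL1 over ctrl and 2DG_aPDL1 over 2DG it had 1.93 and -0.60 in all monocytes or macrophages, 0.94 and -0.62 in Spp1 or Arg1 macrophages, and 2.53 and -0.62 in classical monocytes. Under 2DG over ctrl and 2DG_aPDL1 over aPDL1 Ciita had 0.996 and -0.65 in C1q macrophages. Its negative values in these gates lay just past the cutoff, a log2 ratio of 0.585 in size. With TMM factors Ciita was no longer called lower in 2DG_aPDL1 than in 2DG in all monocytes or macrophages. H2-Ob in monocytes or macrophages had 1.22 and -0.83 under the same pair of 2DG comparisons. H2-DMb2 in type 1 conventional dendritic cells had 0.75 for aPDL1 over ctrl and -0.78 for 2DG_aPDL1 over 2DG.

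In T cells the opposite directions were the reverse. H2-Eb1 had -0.61 for aPDL1 over ctrl and 0.75 for 2DG_aPDL1 over 2DG. In conventional CD4 T cells the same comparisons gave -1.05 and 2.02 for H2-Eb1, -0.61 and 1.47 for Cd74, and -0.63 and 1.78 for the sum. The sum there was 466 CPM in 2DG_aPDL1, 136 in 2DG, 459 in aPDL1 and 711 in ctrl, and 111, 125, 164 and 102 CPM without the richest 1% of cells in the same order.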

How the results depend on the processing

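No paired analysis was possible because each group holds 1 library. Values are log2 ratios of the class II sum for 2DG_aPDL1 over ctrl, 2DG over ctrl, aPDL1 over ctrl, 2DG_aPDL1 over aPDL1 and 2DG_aPDL1 over 2DG; per cell averages and leaving out the richest 1% of cells were chosen after seeing the data. In monocytes or macrophages they were 1.58, 1.63, 1.40, 0.18 and -0.05, and the ratios over ctrl kept their direction and stayed past 1.5-fold under all 11 alternatives. They were 1.56, 1.62, 1.39, 0.17 and -0.066 with no doublet removal, 1.62, 1.67, 1.42, 0.21 and -0.044 with 2 times the doublet rate, 1.60, 1.62, 1.44, 0.16 and -0.017 under a stricter gate, and 1.52, 1.48, 1.24, 0.29 and 0.043 with TMM factors. With the subsets, the cells past several subset gates and those past none weighed equally they were 1.21, 1.19, 1.08, 0.12 and 0.023. As mean UMIs per cell they were 1.11, 1.31, 0.91, 0.21 and -0.20. Leiden clusters gave 1.51, 1.53 and 1.33 over ctrl and -0.011 over 2DG, cells weighed equally 1.57, 1.68, 1.39 and, over 2DG, -0.12, and leaving out the richest 1% of cells 1.70, 1.75, 1.51 and, over aPDL1, 0.19.

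In neutrophils the ratios were 0.28, -0.07, 1.82, -1.54 and 0.35. With no doublet removal they were 0.076, 0.34, 0.89, -0.81 and -0.26, and with Leiden clusters the first 4 were 0.046, -0.37, 0.21 and -0.16, which ended the aPDL1 difference. The first 3 were -0.20, -0.46 and 1.46 with TMM factors, and -0.42, -0.50 and 1.19 as mean UMIs per cell, with 0.083 over 2DG. With cells weighed equally the first 4 were 0.62, 0.31, 1.37 and -0.76, and without the richest 1% of cells 1.23, 0.93, 1.41 and -0.18. For aPDL1 over ctrl and 2DG_aPDL1 over aPDL1, 2 times the doublet rate gave 1.52 and -1.33, at least 1000 genes per cell 2.16 and -1.95, and a stricter gate 0.83 and -0.52. The cause of these changes was not tested.

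The class II genes lower in 2DG_aPDL1 than in 2DG monocytes or macrophages numbered 1, but 0 with TMM factors and 3 as mean UMIs per cell. Of all genes in that gate, 1453 were higher and 1563 lower in 2DG_aPDL1 than in ctrl, 1419 and 1039 in 2DG, 1550 and 1027 in aPDL1; 2DG_aPDL1 had 495 and 886 against aPDL1 and 495 and 765 against 2DG. TMM moved the median of all genes by -0.06, -0.15 and -0.17 for 2DG_aPDL1, 2DG and aPDL1 over ctrl, and gave 933 higher and 1420 lower for 2DG, 1005 and 1521 for aPDL1, 713 and 612 for 2DG_aPDL1 over aPDL1, and 655 and 526 over 2DG. With no UMI minimum the counts were 5232 and 4856, 5591 and 4076, 5928 and 3915, 3476 and 4454, and 3636 and 4179, in the order of the ratios above. With at least 20 UMIs, 1411 were lower in 2DG_aPDL1 than in aPDL1 and 1259 than in 2DG. Of 68 shares of cells with a class II UMI, thinning moved 49 beyond their counting interval. Rare gates limit the rest: ctrl held 20 NK cells and 2DG_aPDL1 24 type 1 conventional dendritic cells.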
